A study of Mus musculus with 13 samples.

Results

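Dividing epithelial cells were examined in single-cell RNA sequencing libraries of 10 colon tumors and 3 samples of adjacent colonic mucosa. All 13 libraries came from 3 C57BL/6J mice of the genotype ApcMin/+; p16cis/cis on a supplemented diet. Tumors and mucosa thus share the truncating Apc mutation, p16cis, which is an epimutation of p16 carried on both alleles, and the diet, an NIH-31 diet with added choline, betaine, folic acid and vitamin B12. Mouse A, 24 weeks old, gave mucosa 2 and tumors 5 to 8. Mouse B, 23 weeks old, gave mucosa 3 and tumors 9 and 10. Mouse C, 20 weeks old, gave mucosa 1 and tumors 1 to 4. Tumors of 1 mouse share that mouse, so p-values over libraries measure the spread between tumors and not between 13 animals. Tumors were dissociated with an enzymatic tumor kit and mucosa with EDTA followed by TrypLE, so tissue and dissociation cannot be told apart in any comparison.

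Cycling epithelial cells were chosen by their unique molecular identifiers (UMIs), each standing for 1 captured mRNA molecule. Barcodes with 500 or more UMIs and 200 or more genes were kept where mitochondrial UMIs were under 25%. It had at least 10 UMIs of the epithelial genes Epcam, Krt8 and Krt18 together, no UMI of the leukocyte gene Ptprc and at least 4 UMIs of the proliferation genes Mki67 and Top2a together. The rule found 7427 cells among 137591 barcodes, of which 118892 passed the filters and 32247 also passed the epithelial part of the rule. Tumors held 3438 of the cells, 228 to 483 each (median 331.5), and mucosa 1, 2 and 3 held 599, 1981 and 1409. Epithelial cells with no UMI of Mki67 and Top2a, 9631 in tumors and 8529 in mucosa, are called non-cycling below, and the 6660 cells with 1 to 3 UMIs belong to neither population.

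In the colon, epithelial cells divide at the base of the crypt, where Wnt signals maintain the stem cells, and their daughters divide a few more times before they become absorptive colonocytes, mucus-secreting goblet cells or rare hormone-secreting and tuft cells. Loss of Apc stabilizes β-catenin and so activates Wnt target genes without a signal. Entry into S phase is driven by cyclin-dependent kinases, which inactivate the retinoblastoma protein and free E2F factors, and is restrained by inhibitors such as p16, a product of Cdkn2a. Genes of DNA synthesis are largely E2F targets, whereas genes of G2 and mitosis are held down in resting cells through the CHR element of their promoters and are activated by NF-Y at CCAAT boxes.

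Promoters are shown for the 3 most abundant G2 and M phase genes of the cycling cells and for the most abundant S phase gene with an E2F match, because these elements mark the groups of genes that define a cycling cell. Hmgb2 encodes a chromatin protein, Tubb4b a β-tubulin, Ube2c the ubiquitin-conjugating enzyme of the anaphase-promoting complex and Hells a chromatin remodeler. Each RefSeq sequence (GRCm38.p6) runs 5′ to 3′ on the strand of the gene from 250 bases before to 50 bases after the transcription start. The positions are chr8:57511593-57511892 on the plus strand for Hmgb2, chr2:25224653-25224952 on the minus strand for Tubb4b, chr2:164769679-164769978 on the plus strand for Ube2c and chr19:38930740-38931039 on the plus strand for Hells. Capitals mark the CHR element (TTTGAA), the CCAAT box (CCAAT) and the E2F core (GCGCGAA or GCGCCAA), each on either strand.
Hmgb2: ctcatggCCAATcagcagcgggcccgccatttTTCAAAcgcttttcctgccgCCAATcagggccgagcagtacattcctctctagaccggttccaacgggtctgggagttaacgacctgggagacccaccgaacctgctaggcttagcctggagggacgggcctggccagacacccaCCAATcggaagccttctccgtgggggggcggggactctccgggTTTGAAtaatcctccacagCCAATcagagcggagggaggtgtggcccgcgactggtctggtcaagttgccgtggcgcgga
Tubb4b: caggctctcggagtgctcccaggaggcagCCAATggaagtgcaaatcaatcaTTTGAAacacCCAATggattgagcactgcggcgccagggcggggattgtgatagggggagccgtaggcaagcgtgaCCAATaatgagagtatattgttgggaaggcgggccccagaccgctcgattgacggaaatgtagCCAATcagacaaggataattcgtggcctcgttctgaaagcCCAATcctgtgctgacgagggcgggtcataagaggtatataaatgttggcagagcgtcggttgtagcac
Ube2c: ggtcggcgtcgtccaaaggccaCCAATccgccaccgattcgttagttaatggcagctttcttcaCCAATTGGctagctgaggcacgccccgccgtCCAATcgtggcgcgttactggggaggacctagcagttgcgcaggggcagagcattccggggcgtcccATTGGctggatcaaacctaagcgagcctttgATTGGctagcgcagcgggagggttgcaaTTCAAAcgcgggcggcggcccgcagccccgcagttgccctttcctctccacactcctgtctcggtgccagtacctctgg
Hells: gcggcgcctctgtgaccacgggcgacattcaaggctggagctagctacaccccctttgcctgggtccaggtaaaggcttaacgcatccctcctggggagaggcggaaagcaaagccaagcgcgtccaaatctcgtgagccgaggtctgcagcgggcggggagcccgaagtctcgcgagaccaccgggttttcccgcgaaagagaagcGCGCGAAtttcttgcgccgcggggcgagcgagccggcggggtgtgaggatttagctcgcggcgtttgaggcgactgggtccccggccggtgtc
Hmgb2, Tubb4b and Ube2c held 2, 1 and 1 CHR elements and 4, 5 and 6 CCAAT boxes, of which 2 in Ube2c overlap, and Hells held 1 E2F core. Among the 3 most abundant S phase genes, Dut and Tyms held none of the motifs in this window and Nasp held 1 CHR element and 2 CCAAT boxes. A CHR element was in 63.2% of the 57 promoters matched to the G2 and M phase list, in 13.3% of the 45 matched to the S phase list and in 17.9% of all 32851 promoters. CCAAT boxes were in 73.7, 60.0 and 37.4% of these promoters, and E2F cores in 14.0, 35.6 and 3.89%. The promoters belong to 51 of 60 and 39 of 52 listed genes, and a match describes letters in this window only.

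The cycling cells carried 90.9 M UMIs in tumors and 95.9 M in mucosa, with a median of 13455 to 28333 UMIs per cell in a tumor and 15710 to 36541 in a mucosa library. The median mitochondrial share was 4.05 to 11.2% in tumors and 3.46 to 4.40% in mucosa. A doublet score marked 3.52 to 16% of the cycling cells of a tumor but 20.9, 41.5 and 35.1% of those of mucosa 1, 2 and 3 as likely pairs of cells, so the ranges do not overlap. The labels call 7 of the 13 libraries female, yet all 13 had more UMIs of Y-linked genes (6985 to 13134) than of Xist (2 to 10), and both sexes are given within 2 of the mice. Sex was a term in no comparison, and its label served only to leave libraries out in an alternative fit. Pairs of libraries shared 14 to 61 barcodes, at most 0.561% of the smaller library, and 8 barcodes of cycling cells were shared.

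Both parts of the name were also described with genes that the rule did not use. The other 12 epithelial genes of a list, among them E-cadherin, villin and claudins, summed to 6693 CPM (UMIs scaled to a common library total) in the pooled cycling cells of tumors and 8461 CPM in those of mucosa. Leukocytes, here and below, are cells with at least 2 UMIs of Ptprc and none of Epcam, Krt8 and Krt18. In them the same sum was 49.2 and 277 CPM. Choosing cells without these epithelial UMIs lowers epithelial RNA in advance, so the contrast is a description. A list of 20 mitotic genes without Mki67 and Top2a summed to 2619 and 3230 CPM in cycling cells and to 106 and 158 CPM in non-cycling cells. The 2 populations were chosen by Mki67 and Top2a, so this contrast is a description too. Just outside the rule, 556 tumor and 556 mucosa cells with 3 UMIs of Mki67 and Top2a had 919 and 1069 CPM of the mitotic list. Just inside, 367 and 392 cells with 4 UMIs had 1287 and 1330 CPM. At the epithelial limit, 12 tumor and 3 mucosa cells had 9 UMIs and 14 and 6 cells had 10 UMIs.

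RNA of other cell types was found in the cycling cells and differed between the tissues. The 10 neutrophil genes summed to 0.206 to 2.30 CPM in mucosa and 70.0 to 652 CPM (median 295) in tumors, where leukocytes had a median of 83204 CPM. The 12 macrophage genes summed to 4.25 to 9.34 CPM in mucosa and 43.3 to 594 CPM (median 96.3) in tumors, and in tumor leukocytes to a median of 26418 CPM. The T cell list stood at 3.51 to 21.2 CPM in mucosa and 10.7 to 33.2 CPM in tumors. The B and plasma cell list stood at 2347 to 3728 CPM in mucosa and 945 to 5011 CPM in tumors, and most of it in mucosa was Cd74, which epithelium also expresses. Endothelial genes reached at most 0.330 CPM in mucosa and 12.1 CPM in tumors, and hemoglobin and Alas2 ranged from 262 to 1096 CPM in mucosa and from 1.15 to 5436 CPM in tumors. Of the 10 fibroblast genes, 7, including the collagens Col1a1, Col1a2 and Col3a1, had no UMI in mucosa and 8 were too low to test. Vim, which leukocytes also express, stood at 1.65, 7.56 and 8.05 CPM in mucosa 1, 2 and 3 and 33.3 to 354 CPM in tumors. It made up most of that list except in mucosa 1, where the list summed to 3.38 CPM. The part of such RNA in the results below was not tested.

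The share of epithelial cells in cycle did not separate the tissues. By the rule itself it was 22.9, 25.4 and 24.8% of the epithelial gate in mucosa 1, 2 and 3 and 14.3 to 29.2% (median 23.3%) in tumors, which is a description. For a test, each epithelial cell with at least 5000 UMIs was thinned to that number. It was counted when it then had at least 3 UMIs of the 20 mitotic genes outside the rule. Cells with fewer UMIs were left out, which kept 2394 of 2613, 6804 of 7808 and 5228 of 5690 cells in mucosa 1, 2 and 3. The part kept differed between tumors, with 1663 of 2161 cells in tumor 2 and 1043 of 1144 in tumor 8. Such cells were 28.6, 40.0 and 36.1% in mucosa and 23.5 to 39.2% (median 31.1%) in tumors. Tumors and mucosa overlapped, with 7 of 10 tumors below the mucosa of their own mouse. Averaged over mice, tumors were lower by 3.32 points, with 30.7% ± 4.86 (SD, n = 10) against 34.9% ± 5.78 (SD, n = 3) and a two-sided exact permutation p of 0.28 over the 75 assignments within mice, of which the smallest possible is 0.0133. Within mouse A the difference was -10.3 points, within mouse B -0.344 and within mouse C 0.691. Its sign rested on mucosa 2 and on likely doublets, being 0.174 without mucosa 2 (exact permutation p = 1) and 1.22 with doublets removed (exact permutation p = 0.76). Without thinning it was -7.35 points, with 9 of 10 tumors below their own mucosa (exact permutation p = 0.0667), and with cells thinned to 10000 UMIs -6.67 (exact permutation p = 0.133).

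The balance of S phase against G2 and M phase RNA in the cells chosen by the rule also overlapped. The 52 S phase genes summed to 2598 to 3210 CPM in mucosa and 2488 to 3498 CPM in tumors, and the 60 G2 and M phase genes to 7816 to 9220 CPM and 6701 to 8852 CPM. The ratio of these sums was 0.332 to 0.351 in mucosa, inside the range of 0.292 to 0.471 (median 0.363) in tumors. On the log2 scale it was -1.56 ± 0.0407 (SD, n = 3) in mucosa and -1.46 ± 0.193 (SD, n = 10) in tumors, a mean difference within mice of 0.119 with an exact permutation p of 0.427. It was 0.0357 without tumor 9 and 0.202 without tumor 10. With at least 8 UMIs of Mki67 and Top2a it was 0.210 (exact permutation p = 0.2). The bearing of the choice of cells by Mki67 and Top2a on this ratio was not tested. Among single cycling cells, S phase UMIs outnumbered G2 and M phase UMIs in 15.5 to 20.7% in mucosa and 11.5 to 20.2% in tumors. No cell was assigned to a phase.

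**Figure D1:**
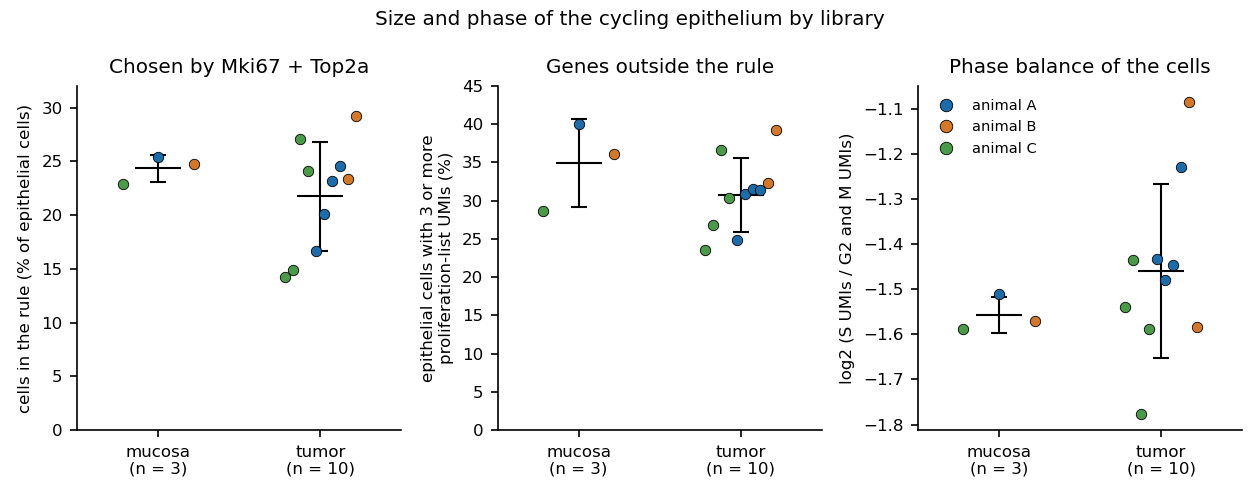
Cycling cells as a percent of epithelial cells by the rule (left), percent of epithelial cells with 3 or more UMIs of mitotic genes outside the rule after thinning (middle), and log2 ratio of S phase to G2 and M phase UMIs in cycling cells (right). Each point is 1 library colored by mouse (labelled animal), bars show the mean and SD of 3 mucosa and 10 tumor libraries, and the tissues overlap in every panel.

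Gene expression of the cycling cells was compared between tumor and mucosa on UMIs summed per library with edgeR's quasi-likelihood test. Differences are log2 fold changes of tumor over mucosa, and a gene rose or fell when its Benjamini-Hochberg adjusted p was below 0.05. The value after ± of a difference or interaction is its size divided by the square root of the test's F statistic. It stands in for a standard error. Of 13129 genes tested, 7024 (53.5%) passed, 3719 (28.3%) higher and 3305 (25.2%) lower, and the median difference was 0.03. The count was lowest without mouse A, at 4704, and 5023 without the 7 libraries labelled female, where 5 tumors and 1 mucosa library remain and the lone mucosa is assumed to vary like the tumors.

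Among genes of DNA synthesis and mitosis, more fell than rose. Of 52 S phase genes, 19 fell, 2 rose and 31 did not pass, with a median of -0.17. Of 60 G2 and M phase genes, 20 fell, 5 rose and 35 did not pass, with a median of -0.19. Of the 20 mitotic genes used for the share above, 9 fell and none rose, with a median of -0.34. Over all genes 25.2% fell and 28.3% rose. In non-cycling cells the medians of these lists were lower, at -0.39, -0.46 and -1.12. Cycling cells were chosen by Mki67 and Top2a, with a median of 8 to 13 UMIs of the pair in tumors and 12 to 16 in mucosa. The bearing of that choice on these genes was not tested. Aurkb, the kinase that corrects chromosome attachment, stood at 59.3, 81.6 and 88.1 CPM in mucosa 1, 2 and 3 and 25.6 to 59.1 CPM (median 40.4) in tumors. All tumors lay below all mucosa, the highest by a narrow margin, and Aurkb fell by 1.09 ± 0.19 (edgeR adjusted p = 0.000234). Ube2c, whose promoter is printed above, stood at 428, 605 and 650 CPM in mucosa and 259 to 446 CPM (median 330) in tumors. Tumor 3 alone reached above mucosa 1, and Ube2c fell by 0.89 ± 0.16 (edgeR adjusted p = 0.000407).

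Other genes of these lists moved either way. Tk1, thymidine kinase of nucleotide salvage, stood at 55.9, 122 and 86.2 CPM in mucosa and 34.8 to 59.0 CPM (median 42.5) in tumors and fell by 1.12 ± 0.18 (edgeR adjusted p = 0.000148), with tumor 8 above mucosa 1. Gmnn, which encodes geminin, the inhibitor of re-replication, fell by 0.81 ± 0.10, and the cyclin gene Ccna2 by 0.54 ± 0.11, each with all tumors below all mucosa. Its kinase Cdk1 fell by 0.59 ± 0.17 with overlap, and its difference without mucosa 3 was -0.47 and not called (edgeR adjusted p = 0.0667). Psrc1, which encodes a spindle protein, rose by 1.37 ± 0.30 (edgeR adjusted p = 0.00141), from 7.80, 7.17 and 9.79 CPM in mucosa to 13.8 to 44.2 CPM (median 21.7) in tumors. Hells, shown above with an E2F core, stood higher in all 10 tumors and rose by 0.41 ± 0.11, but its difference without mucosa 3 was 0.33 (edgeR adjusted p = 0.0536). Ckap2, a spindle-associated protein, rose by 0.58 ± 0.15 and was not called without mouse A (edgeR adjusted p = 0.0634).

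Of 39 cyclins, kinases, inhibitors and E2F and Myc family genes, 9 rose and 11 fell, with a median of -0.07, near the shares of all genes (28.3% higher and 25.2% lower). Cdkn2a (ENSMUSG00000044303), which encodes p16 and p19Arf and whose UMIs do not tell the 2 transcripts apart, had 2 UMIs in the cycling cells of all mucosa, both in mucosa 2, and 3395 UMIs in tumors. The tumors stood at 25.4 to 62.0 CPM (median 33.5), all far above the mucosa. The ratio of pooled CPM was 1791, with a 95% interval of 496 to 14798 that covers counting error only. Thinning to 2500 UMIs, here and below, left out cells with fewer UMIs. It kept 27420 of 34350 tumor leukocytes and 1019 of 1737 mucosa leukocytes. After thinning to 2500 UMIs, Cdkn2a was found in 3.33 to 9.65% of the cycling cells of a tumor and in 1 of 3983 cycling cells of mucosa. It was found in 0.111 to 0.507% of tumor leukocytes and in 17 of 1019 mucosa leukocytes, at 1.15, 1.59 and 7.41% in the 3 libraries, the highest in the library with the fewest leukocytes. In non-cycling epithelium it was found in 3.38 to 14.8% of tumor cells and in 0 of 8167 mucosa cells, which allows a share of up to 0.0367%.

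Other inhibitors of the cell cycle moved in both directions. Cdkn1a, which encodes p21, a target of p53, stood at 45.5, 69.4 and 72.6 CPM in mucosa and 128 to 327 CPM (median 194) in tumors. All tumors lay above all mucosa and Cdkn1a rose by 1.64 ± 0.25 (edgeR adjusted p = 8.33e-05). Cdkn1c, which encodes p57, rose by 2.76 ± 0.37. Cdkn2b, the p15 gene, rose by 0.91 ± 0.28 with 9 of 10 tumors above all mucosa, and its difference without mucosa 1 was 0.72 (edgeR adjusted p = 0.0757). The call was also lost without mouse C, where the difference was 0.53, with at least 2 UMIs of Mki67 and Top2a, in cells thinned before the rule and without the libraries labelled female. Cdkn1b (p27), Cdkn2c (p18) and Cdkn2d (p19) fell by 1.01 ± 0.09, 1.23 ± 0.16 and 1.02 ± 0.14, each with all tumors below all mucosa. Cdk6, a kinase that p16 inhibits, stood at 46.4, 45.9 and 44.5 CPM in mucosa and 10.6 to 28.1 CPM (median 20.5) in tumors. No tumor reached the mucosa, and Cdk6 fell by 1.26 ± 0.17 (edgeR adjusted p = 3.00e-05). Mdm2, the ligase gene that limits p53, rose by 0.94 ± 0.17, the factor E2f3 by 0.73 ± 0.15 and Mycl by 2.0 ± 0.38.

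**Figure D2:**
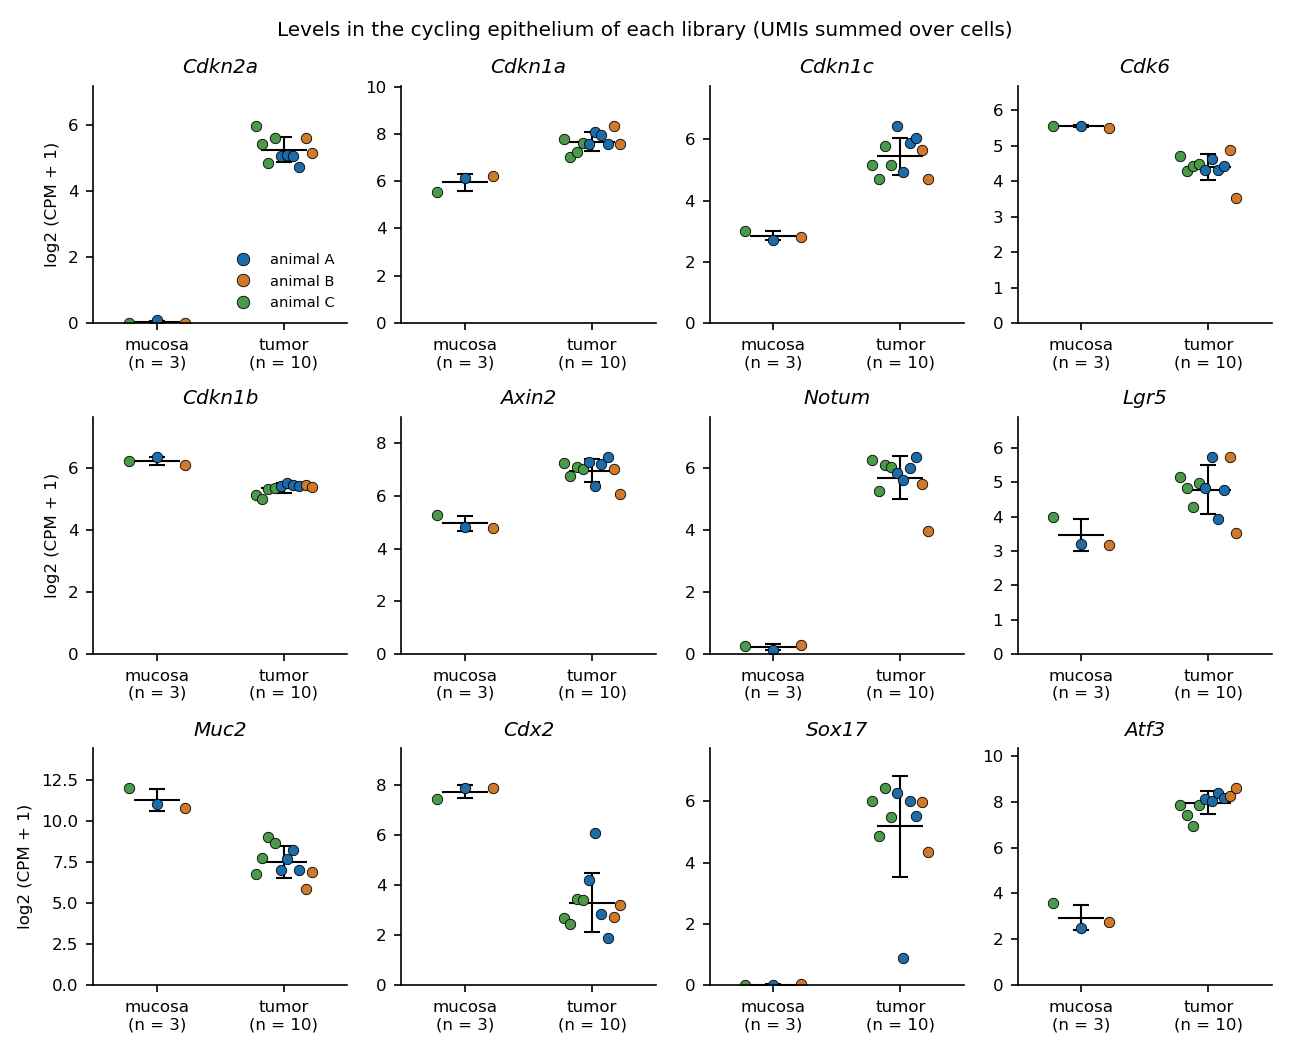
Levels of 12 genes in cycling epithelium as log2 of CPM plus 1, with 1 point per library colored by mouse (labelled animal) and bars for the mean and SD of 3 mucosa and 10 tumor libraries. Cdkn2a, Notum and Sox17 lie near 0 in mucosa and Cdk6, Muc2 and Cdx2 lower in every tumor than in any mucosa, while Lgr5 overlaps.

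Of the 22 Wnt target and feedback genes, 19 rose, none fell and 3 did not pass, with a median of 2.54, where 28.3% of all genes rose and 25.2% fell. Of these, 8 had 1 to 25 UMIs in all mucosa and passed the filter on low counts through tumors, so the count is a description and no support. Axin2, a direct target that restrains β-catenin, stood at 38.2, 27.0 and 26.8 CPM in mucosa and 65.9 to 180 CPM (median 134) in tumors. All tumors lay above all mucosa, with tumor 10 the lowest, and Axin2 rose by 1.95 ± 0.26 (edgeR adjusted p = 3.02e-05). Nkd1, an intracellular antagonist, stood at 1.94, 1.25 and 1.44 CPM in mucosa and 39.3 to 269 CPM (median 173) in tumors and rose by 6.69 ± 0.58. The secreted antagonists were nearly absent from cycling mucosa. Wif1 had 25 UMIs there and 13674 in tumors, a ratio of 577 (counting interval 391 to 892). Notum, which removes the lipid of Wnt proteins, had 16 and 5058 UMIs, a ratio of 334 (205 to 584). Dkk2 had 2 and 3627 UMIs, a ratio of 1914 (529 to 15809).

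Nuclear factors and receptor-level feedback of the pathway rose too. Lef1 had 9 UMIs in mucosa and 1806 in tumors, a ratio of 212 (counting interval 111 to 464). The homeobox gene Prox1 stood at 1.03, 0.803 and 0.788 CPM in mucosa and 30.1 to 174 CPM (median 123) in tumors and rose by 6.83 ± 0.53. Lef1 and Prox1 passed the filter on low counts through tumors. Tcf7, Sp5 and Sox4 rose by 2.71 ± 0.20, 2.36 ± 0.33 and 1.53 ± 0.20. Rnf43 and Znrf3, whose products remove Wnt receptors, rose by 1.91 ± 0.20 and 1.68 ± 0.27, and the β-catenin gene Ctnnb1 by 0.90 ± 0.15. All tumors lay above all mucosa for each of these 8 genes, as for 22.2% of all genes tested. For Lef1 and Prox1 this is a description and no support.

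The stem cell list was mixed. Of 23 genes tested, 10 rose and 3 fell, with a median of 0.48, against 28.3% and 25.2% of all genes, and Axin2, Rnf43, Znrf3, Lgr5 and Ascl2 are also in the Wnt list. Lgr5, the R-spondin receptor that marks crypt base stem cells, stood at 14.9, 8.17 and 8.08 CPM in mucosa and 10.6 to 52.7 CPM (median 27.3) in tumors. Tumors 7 and 10 lay below mucosa 1, and Lgr5 rose by 1.37 ± 0.42 (edgeR adjusted p = 0.0136). The difference was 1.21 without mucosa 2 (edgeR adjusted p = 0.0705) and without mucosa 3 (edgeR adjusted p = 0.0703). Cd44, a surface marker of stem cells, stood at 45.6, 61.3 and 70.6 CPM in mucosa and 34.9 to 105 CPM (median 51.1) in tumors, a difference of -0.16 ± 0.25 (edgeR adjusted p = 0.604).

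Goblet cell genes were mostly lower in cycling tumor cells than in cycling mucosa cells. Of 20 goblet and secretory genes, 17 fell and 1, Ang4, rose, with a median of -2.95, where 25.2% of all genes fell. The difference of Ang4 was 3.46 ± 1.30 (edgeR adjusted p = 0.0362), but 3.02 without mucosa 1 (edgeR adjusted p = 0.114) and 2.92 without mucosa 3 (edgeR adjusted p = 0.124). Muc2, the main mucin of colonic mucus, stood at 4274, 2152 and 1798 CPM in mucosa and 56.0 to 523 CPM (median 169) in tumors. All tumors lay below all mucosa and Muc2 fell by 3.76 ± 0.47 (edgeR adjusted p = 2.03e-05). Atoh1, the factor that commits cells to the secretory lineage, stood at 68.5, 51.0 and 38.8 CPM in mucosa and 0.768 to 8.09 CPM (median 4.86) in tumors and fell by 3.52 ± 0.32. Spdef, which acts after Atoh1, fell by 3.60 ± 0.22 and Agr2, which is needed for mucin folding, by 3.22 ± 0.29. After thinning to 2500 UMIs, Muc2 was found in 28.5 to 45% of cycling mucosa cells and 1.47 to 6.81% of cycling tumor cells. Leukocytes held it in 15.4, 16.1 and 37.0% in the 3 mucosa libraries (164 of 1019 cells in all) and 0.436 to 5.22% in tumors. The range in cycling cells overlaps that of leukocytes in tumors, and in mucosa through the highest of the 3 libraries only, which held the fewest leukocytes.

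Absorptive genes fell as well. Of 25 genes tested, 16 fell and 3 rose, with a median of -2.41, against 25.2% lower and 28.3% higher over all genes. Car1, a carbonic anhydrase of colonocytes, stood at 29.0, 1260 and 1680 CPM in mucosa and 24.9 to 266 CPM (median 142) in tumors and fell by 3.09 ± 0.69 (edgeR adjusted p = 0.00178). Tumors of mice A and B lay below their own mucosa, by -3.57 and -3.40 on the log2 scale of CPM plus 1, whereas those of mouse C lay above theirs, by 2.07. With the tumors of each mouse summed and the mouse as a block, the difference was -2.17 (edgeR adjusted p = 0.163). Slc9a3, the sodium-proton exchanger of the colonocyte surface, stood at 0.0825, 3.27 and 5.74 CPM in mucosa and 18.0 to 80.4 CPM (median 59.4) in tumors and rose by 3.94 ± 0.72 (edgeR adjusted p = 0.000395). Slc9a3 was below the filter on low counts in mucosa 1 and passed it only with tumors counted. The phosphate transporter gene Slc20a1 rose by 0.76 ± 0.15.

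Paneth cell genes are largely lacking in healthy colon. Of the 8 genes tested of the list of 10, Defa36, Defa30 and Defa22 had no UMI in mucosa and Defa17 and Defa24 had 1 and 2, so these passed the filter on low counts through tumors only and had to differ. Lyz1, Mmp7 and Itln1 had 2134, 565 and 288 UMIs in mucosa. Mmp7, which processes defensins and is a known Wnt target, stood at 2.35, 6.98 and 7.20 CPM in mucosa and 75.1 to 413 CPM (median 205) in tumors and rose by 5.28 ± 0.54. Lyz1, the Paneth lysozyme, stood at 0.0825, 27.2 and 32.4 CPM in mucosa and 103 to 805 CPM (median 255) in tumors and rose by 3.98 ± 1.04 (edgeR adjusted p = 0.00503). Being so low in mucosa 1, Lyz1 passed the filter only with tumors counted. After thinning, Lyz1 was found in 2.88 to 9.65% of cycling tumor cells and in 1.61 to 8.55% of tumor leukocytes, so its share is not separated from that background. Defa24 had 2 UMIs in mucosa and 1.58 to 677 CPM in tumors, a ratio of 6670 (counting interval 1846 to 55085), and UMIs of the near-identical α-defensin genes cannot be firmly assigned to 1 of them.

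Hormone and tuft cell genes were mostly too low to test, and 5 genes of each list were tested. Of the hormone cell genes, 2 fell, none rose and 3 did not pass, where 25.2% of all genes fell and 28.3% rose. The hormone gene Pyy differed by 3.24 (edgeR adjusted p = 0.0683), which passed in 6 of 28 alternatives. Chgb, of endocrine granules, stood at 0.330, 77.3 and 34.1 CPM in mucosa, at 0 to 0.423 CPM in 9 tumors and at 32 CPM in tumor 10, a difference of -3.45 ± 1.28 (edgeR adjusted p = 0.0341). It was -2.37 without mucosa 2 (edgeR adjusted p = 0.237), -3.52 without mucosa 3 (edgeR adjusted p = 0.0699) and -3.29 to -3.32 without tumor 4, 7 or 8 (edgeR adjusted p = 0.0502 to 0.0525). With doublets removed it was 1.08, and it was also not called by DESeq2, with the tumors of each mouse summed or without mouse A or C. Avil, the advillin gene of tuft cells, rose by 5.24 ± 0.41, from 2.23, 1.19 and 0.844 CPM in mucosa to 29.6 to 85.1 CPM (median 61.6) in tumors. Ptgs1 rose by 2.04 ± 0.63, with 1.90 without mucosa 2 (edgeR adjusted p = 0.0633) and 1.73 without mucosa 3 (edgeR adjusted p = 0.0777). All tumors lay above all mucosa for Avil, which passed the filter on low counts only with tumors counted.

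Of 20 factors of colonic identity tested, 5 rose and 6 fell, with a median of -0.10, near the shares of all genes (28.3% higher and 25.2% lower). Cdx2, the homeobox factor of intestinal identity, stood at 172, 231 and 236 CPM in mucosa and 2.69 to 66.6 CPM (median 7.16) in tumors. All tumors lay below all mucosa, with tumor 6 the highest, and Cdx2 fell by 4.09 ± 0.63 (edgeR adjusted p = 0.000101). Its relative Cdx1 fell by 1.05 ± 0.22. Sox17, a factor of endoderm formation, had 1 UMI in mucosa and 4648 in tumors, a ratio of 4905 (counting interval 880 to 193787). It stood at 0.861 CPM in tumor 6 and 19.2 to 86.6 CPM in the other tumors. Hoxb13, a factor of the distal colon, stood at 102, 59.4 and 88.0 CPM in mucosa, 24.5 CPM in tumor 6 and 184 to 352 CPM in the other tumors. It rose by 1.40 ± 0.49 (edgeR adjusted p = 0.027), with 1.19 without mucosa 2 (edgeR adjusted p = 0.118) and 1.43 without mucosa 3 (edgeR adjusted p = 0.076).

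Of 22 genes of the fetal-like and regenerative state tested, 20 rose and none fell, with a median of 2.55, against 28.3% higher and 25.2% lower over all genes. Of these, 6 had 0 to 40 UMIs in all mucosa and passed the filter through tumors, so this count is also only a description. Clu, which marks revival stem cells, had 40 UMIs in mucosa and 9011 in tumors, a ratio of 238 (counting interval 174 to 333), and ranged from 20.3 to 230 CPM in tumors. Areg, a ligand of the EGF receptor, stood at 3.47, 11.8 and 6.61 CPM in mucosa and 29.1 to 428 CPM (median 70.2) in tumors and rose by 3.91 ± 0.85 (edgeR adjusted p = 0.00144). The related ligand Hbegf rose by 2.58 ± 0.39 and the keratin Krt23 by 3.79 ± 0.39, each with all tumors above all mucosa. The list is also expressed by leukocytes, with a median sum of 9762 CPM in tumor and 2587 CPM in mucosa leukocytes against 6918 and 2666 CPM in cycling cells.

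Of 15 genes that tissue dissociation is known to induce, 14 rose and none fell, with a median of 2.28, where 28.3% of all genes rose and 25.2% fell. They summed to 1244 to 1446 CPM in mucosa and 2134 to 5186 CPM (median 4509) in tumors. Atf3, a stress-induced factor, stood at 10.9, 4.68 and 5.71 CPM in mucosa and 121 to 393 CPM (median 269) in tumors and rose by 5.08 ± 0.41 (edgeR adjusted p = 5.55e-07). The AP-1 genes Fos and Jun rose by 1.46 ± 0.30 and 1.76 ± 0.36, the inducible chaperone Hspa1a by 4.70 ± 0.81 and Ier3 by 3.26 ± 0.22. All tumors lay above all mucosa for these 5 genes, as for 22.2% of all genes tested, and the tissues were dissociated in different ways.

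The 10 neutrophil genes had 0 to 51 UMIs each in all mucosa and 97 to 12076 in tumors, and the 11 macrophage genes tested had 3 to 262 and 73 to 3504. Genes this low in mucosa passed the filter on low counts through tumors, so the number of them called is no support. S100a8 stood at 0.0413, 0.831 and 0.338 CPM in mucosa and 23.0 to 185 CPM (median 93.5) in tumors. After thinning it was found in 3.33 to 21.1% of cycling tumor cells and 44.8 to 67.1% of tumor leukocytes. The macrophage genes Lyz2 and Apoe were highest in tumor 9, at 234 and 194 CPM, against 5.82 to 81.8 and 9.28 to 49.5 CPM in the other tumors. The 4 endothelial genes tested had 0 to 12 UMIs each in mucosa and also passed the filter through tumors. In the other lists, 1 of 6 T cell genes rose and 1 fell, and 1 of 7 B and plasma cell genes fell. Vim rose and Pdgfrb fell among the fibroblast genes, and none of 5 erythrocyte genes passed. The shares of all genes were 28.3% higher and 25.2% lower.

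**Figure D3:**
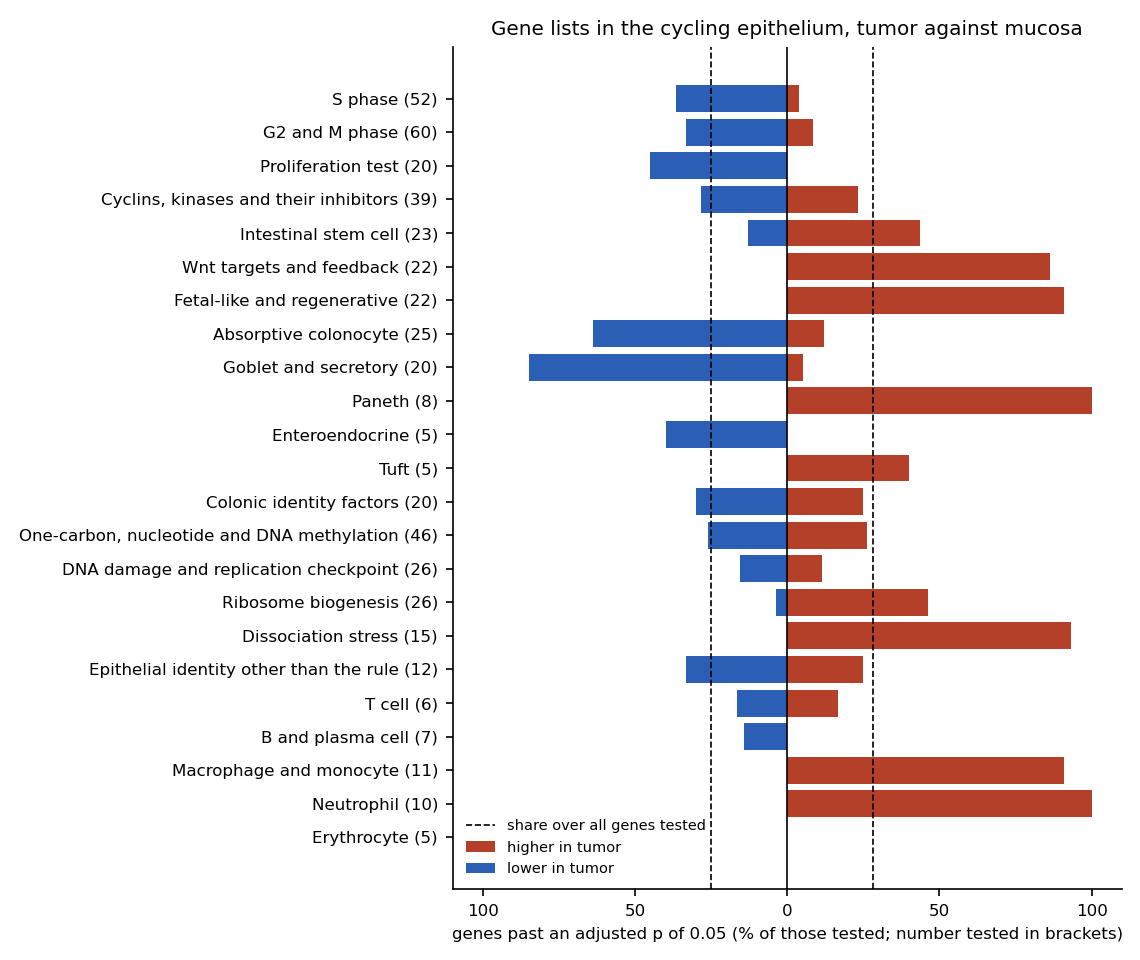
Genes of each list that were higher (right) or lower (left) in cycling tumor cells at an edgeR adjusted p below 0.05, as a percent of those tested, for lists with 5 or more genes tested. Dashed lines mark all genes, at 28.3% higher and 25.2% lower, and the Wnt, fetal-like, Paneth, stress, macrophage and neutrophil lists extend far to the right, the absorptive and goblet lists far to the left. Most Paneth, macrophage and neutrophil genes passed the filter on low counts through tumors.

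The largest single changes were taken among genes that passed, reached a mean of 50 CPM in the higher group and did not overlap between tissues, as 35.4% of all genes did not (22.2% higher and 13.2% lower). The rises named here were nearly absent from mucosa and entered the test through tumors. That they passed and did not overlap is therefore a description and no support. Ptn (ENSMUSG00000029838), which encodes the growth factor pleiotrophin, had no UMI in cycling mucosa cells and 16988 in tumors, at 11.9 to 308 CPM (median 200). With 3 counts over the mucosa as a floor it was at least 5976-fold higher. After thinning it was found in 2.39 to 30.5% of cycling tumor cells, in at most 0.954% of tumor leukocytes and in 0 of 3983 cycling mucosa cells, which allows a share of up to 0.0753%. Mgp, an inhibitor of calcification, had 5 UMIs in mucosa and 25878 in tumors, a ratio of 5462 (counting interval 2340 to 16823). Onecut2, a homeobox factor of liver and pancreas, had 4 and 12064, a ratio of 3183 (1243 to 11684).

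Ifitm1, an interferon-induced membrane protein, had 13 UMIs in mucosa and 39747 in tumors, a ratio of 3227 (counting interval 1887 to 6060). Mt4, a metallothionein of squamous epithelium, had 14 and 28649, a ratio of 2160 (1287 to 3951). The lipoxygenase gene Alox12 had 3 and 5646, a ratio of 1986 (679 to 9634). The proteoglycan gene Spock2 and the protease gene Htra1 had ratios of 843 (502 to 1542) and 842 (443 to 1842). Defa24 and Wif1, described above, complete these 10 genes.

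Falls named by the same rule follow. Retnlb, an antibacterial protein of goblet cells, stood at 689, 772 and 414 CPM in mucosa and 1.77 to 58.9 CPM (median 22.7) in tumors and fell by 4.87 ± 0.64 (edgeR adjusted p = 2.92e-05). Mptx1, an intestinal pentraxin, stood at 183, 226 and 224 CPM in mucosa and 0 to 28.7 CPM (median 1.62) in tumors and fell by 5.22 ± 0.87. Fabp2, a fatty acid binding protein, stood at 444, 522 and 639 CPM in mucosa, 137 CPM in tumor 6 and at most 21.7 CPM in the other tumors and fell by 4.80 ± 0.92. The sulfotransferase gene Sult1a1 fell by 4.86 ± 0.34, Mettl7b by 4.50 ± 0.63, the goblet lectin gene Zg16 by 4.38 ± 1.02, the claudin gene Cldn15 by 3.92 ± 0.47 and Apol10a by 3.89 ± 0.82. Cdx2, described above, is also among these genes. Tumor 6 was the highest tumor for Fabp2, Cdx2, Mettl7b, Apol10a, Cldn15 and Retnlb, while below all mucosa for each. With at least 2 UMIs of Mki67 and Top2a the difference of Zg16 was -3.02 (edgeR adjusted p = 0.057).

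To find differences that depend on cycling, the sums of cycling and non-cycling cells of the 13 libraries were fitted together with the library as a block. The interaction is the log2 tumor over mucosa difference in cycling cells minus that in non-cycling cells. Of 14714 genes tested, 4560 (31.0%) passed, 3016 (20.5%) positive and 1544 (10.5%) negative, with a median of 0.07. The split changed when single libraries were left out. Of the called genes, 66.1% were positive with all libraries and 48.5, 48.4 and 48.9% without tumor 2, 5 and 9. The median over all genes tested moved too, from 0.07 to -0.03 without each of these tumors. The shares of all genes set beside the lists below are those with all libraries. Without mucosa 2, 2940 genes passed, in cells thinned before the rule 3043 and with doublets removed 5326. Likely doublets were 20.9 to 41.5% of cycling and 3.39 to 8.94% of non-cycling cells in mucosa libraries. In tumors they were 3.52 to 16% and 4.45 to 22.8%. In the separate fits, 5896 of 13018 genes tested in both populations were called in both, 41 of them in opposite directions.

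All called interactions of stem cell genes were negative, and the other genes of the list did not pass. Of 23 genes, 12 had a negative and none a positive interaction, against 10.5% and 20.5% of all genes, and their median difference was 0.48 in cycling and 0.80 in non-cycling cells. Axin2 stood at 30.6 ± 6.52 CPM (SD, n = 3) in cycling and 11.7 ± 2.66 CPM in non-cycling mucosa, and at 129 ± 34.6 CPM (SD, n = 10) and 154 ± 40.0 CPM in tumors. Its interaction was -1.38 ± 0.17 (edgeR adjusted p = 4.81e-05), and non-cycling cells had the higher level in 7 of 10 tumors. Lgr5 stood at 10.4 ± 3.94 and 4.36 ± 1.67 CPM in cycling and non-cycling mucosa and at 29.3 ± 14.2 and 48.5 ± 27.7 CPM in tumors, an interaction of -1.69 ± 0.21 (edgeR adjusted p = 4.36e-05). In all 10 tumors its level was higher in non-cycling cells. Cd44 stood at 21.7 ± 5.44 CPM in non-cycling mucosa and 81.7 ± 12.4 CPM in non-cycling tumor cells and had an interaction of -1.76 ± 0.22. Znrf3, Smoc2, a crypt base marker, and Sox4 had interactions of -1.50 ± 0.13, -1.36 ± 0.17 and -1.18 ± 0.11. The Wnt list had 8 negative and 3 positive interactions among 22 genes, with Wif1 among the positive ones (2.55 ± 0.41). In cells thinned before the rule was applied, the interaction of Wif1 was 0.49 (edgeR adjusted p = 0.618).

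Regulators of the cell cycle differed in both directions, with 17 positive and 8 negative interactions among 39 genes, where 20.5% of all genes had a positive and 10.5% a negative one. Cdkn1a stood at 365 ± 189 CPM in non-cycling mucosa and 290 ± 63.5 CPM in non-cycling tumor cells. In these cells Cdkn1a differed by -0.69 (edgeR adjusted p = 0.0466), whereas it rose by 1.64 in cycling cells. Its interaction was 2.18 ± 0.24 (edgeR adjusted p = 2.37e-05). Cdkn2b and Cdkn2c had interactions of 1.22 ± 0.25 and 1.28 ± 0.18. Cdk6 stood at 23.1 ± 3.41 CPM in non-cycling mucosa and 33.1 ± 8.78 CPM in non-cycling tumor cells, an interaction of -1.41 ± 0.10 (edgeR adjusted p = 5.02e-07). In all 10 tumors Cdk6 was lower in cycling than in non-cycling cells. Cdkn2a stood at 55.4 ± 27.6 CPM in non-cycling tumor cells, with an interaction of -0.28 ± 3.20 (edgeR adjusted p = 0.972).

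All called interactions of absorptive genes were positive. The median difference was -2.41 over the 25 genes tested in cycling cells and -3.33 over the 28 tested in non-cycling cells. Of 28 genes, 12 had a positive and none a negative interaction, against 20.5% and 10.5% of all genes, and the rest did not pass. In non-cycling cells 22 of the 28 fell and none rose. There 64.2% of all 14451 genes tested passed (33.3% higher and 30.9% lower). Slc9a3 stood at 54.6 ± 31.7 CPM in non-cycling mucosa and 68.2 ± 31.6 CPM in non-cycling tumor cells and had an interaction of 4.22 ± 0.35 (edgeR adjusted p = 2.4e-06). Klf4, a factor of differentiated colonocytes, differed by -0.23 ± 0.20 in cycling cells and had an interaction of 1.24 ± 0.15. Vil1, which encodes villin, differed by 0.10 ± 0.12 in cycling cells and had an interaction of 1.10 ± 0.19. Of the 12 epithelial genes outside the rule, 8 had a positive and none a negative interaction, against 20.5% and 10.5% of all genes.

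Stress genes had 10 positive and no negative interactions among 15, against the same 20.5% and 10.5% of all genes. Atf3 stood at 37.2 ± 1.68 CPM in non-cycling mucosa and 447 ± 98.6 CPM in non-cycling tumor cells, against 7.10 ± 3.33 and 260 ± 77.9 CPM in cycling cells, an interaction of 1.92 ± 0.23 (edgeR adjusted p = 3.62e-05). Fos had an interaction of 0.96 ± 0.12. Areg stood at 74.5 ± 45.6 and 160 ± 91.4 CPM in non-cycling mucosa and tumor cells and had an interaction of 2.85 ± 0.40. In tumors the level of Atf3 was higher in non-cycling cells in every library, so the interaction does not mean a higher level in cycling cells.

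The largest interactions included genes of other cell types. The positive ones were Pyy, a gut hormone (4.40 ± 1.06), Slc9a3, S100a8 (3.97 ± 0.86), Plat, the tissue plasminogen activator (3.11 ± 0.63), and Car1 (2.86 ± 0.58). S100a8 was nearly absent from cycling mucosa, so its interaction rests on very few counts there and is no support. Plat differed by 9.01 in cycling cells, against 7.61 for S100a8, so its interaction is likewise no support. The negative ones were the antibody genes Igkc (-5.03 ± 1.39), Jchain (-4.50 ± 1.38) and Igha (-4.27 ± 1.30), the lipocalin gene Lcn2 (-3.17 ± 0.21) and the predicted gene Gm42047 (-2.35 ± 0.23). Those of Igkc, Jchain and Igha were not called without mucosa 1 or 3, with -3.56, -3.47 and -2.96 without mucosa 1 (edgeR adjusted p = 0.0907, 0.107 and 0.123) and -4.01, -3.15 and -3.27 without mucosa 3 (edgeR adjusted p = 0.113, 0.161 and 0.159). They were also not called in cells thinned before the rule or without the libraries labelled female, nor, for Jchain and Igha, with doublets removed. Lcn2, an iron-binding defense protein, stood at 4.33, 11.5 and 7.34 CPM in cycling mucosa and 43.8 to 261 CPM (median 210) in cycling tumor cells, and at 2.45 ± 1.54 and 630 ± 276 CPM in non-cycling cells.

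**Figure D4:**
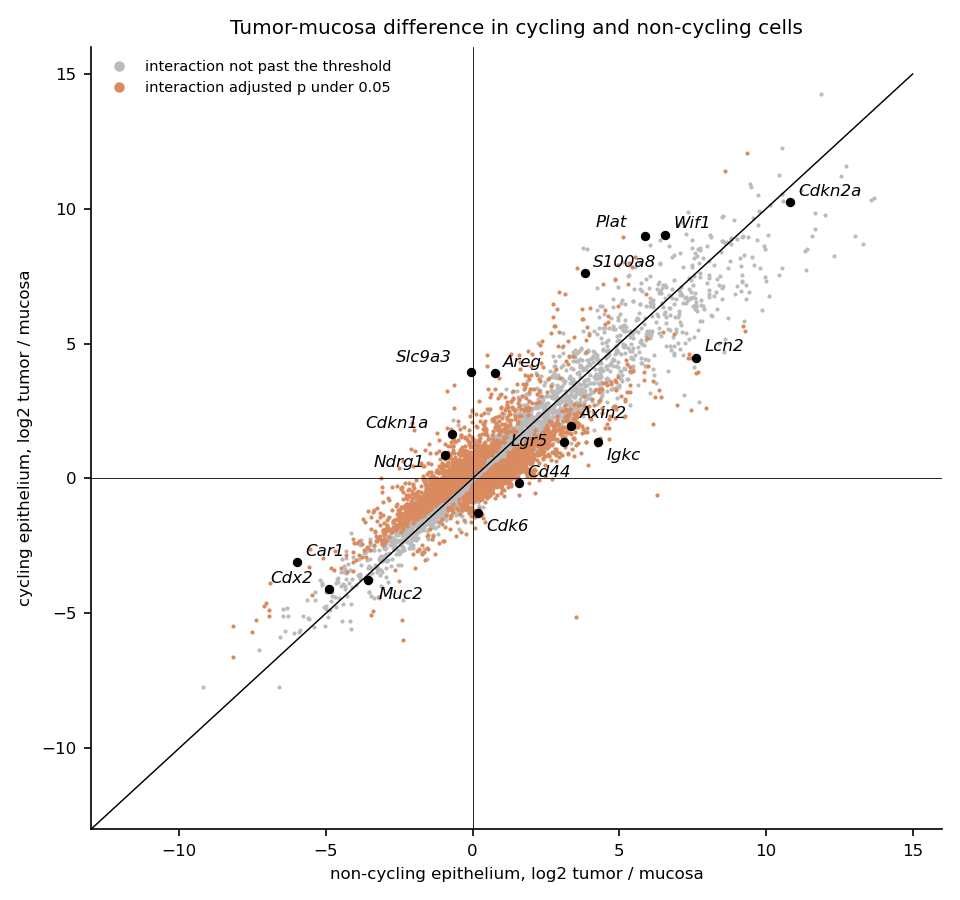
Tumor over mucosa log2 difference of each gene in non-cycling (x axis) and cycling epithelium (y axis), with genes past the interaction test in orange, others in gray, 17 named genes in black and a line of equal difference. Lgr5, Axin2, Cd44, Cdk6, Lcn2 and Igkc lie below the line and Cdkn1a, Slc9a3, Areg, Wif1, Plat and S100a8 above it.

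Among the genes called in opposite directions, 8 reached 50 CPM and passed the interaction, and they were singled out after their values were seen. Besides Cdkn1a, they include Ndrg1, a stress-responsive gene of differentiation, which stood at 35.0, 36.2 and 27.2 CPM in cycling mucosa and 42.7 to 96.6 CPM (median 68.9) in cycling tumor cells, and at 124 ± 27.5 and 81.9 ± 15 CPM in non-cycling mucosa and tumor cells. It rose by 0.88 in cycling and fell by 0.95 in non-cycling cells, an interaction of 1.82 ± 0.14 (edgeR adjusted p = 9.36e-07). The other genes are Sprr2a3, Stmn1, Eif2s2, Cdh17, Ezr and Smim15. Their differences in non-cycling cells come from a single fit with no alternative. In cycling cells Stmn1 and Sprr2a3 were not called without mucosa 1 (-0.54 and 0.72, edgeR adjusted p = 0.0641 and 0.0677) or without mucosa 3 (-0.44 and 0.95, edgeR adjusted p = 0.124 and 0.0636).

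The tumors differed among themselves. Tumor 10 was lowest for Wnt feedback genes, with 38.0 CPM of Wif1 against 99.2 to 238 CPM in the other tumors, 14.5 CPM of Notum against 37.4 to 81.8 CPM and 30.1 CPM of Prox1 against 70.6 to 174 CPM. It still lay above all mucosa for each. Tumor 6 was lowest for Sox17, Hoxb13, Mgp (32.7 CPM against 140 to 552 CPM) and Ptn (11.9 CPM). Hormone and blood RNA varied widely, with Pyy from 0 CPM in tumor 6 to 409 CPM in tumor 2 and the hemoglobin gene Hbb-bs from 0.861 CPM in tumor 6 to 3500 CPM in tumor 1. Each tumor is 1 library, so these differences have no replicate.

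**Figure D5:**
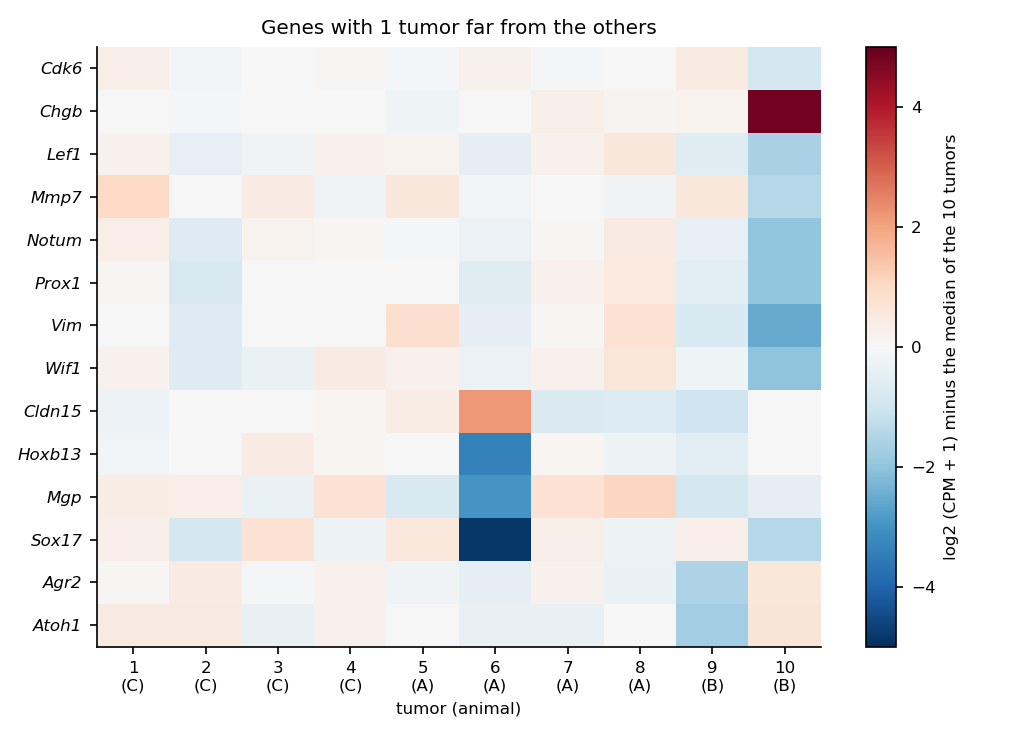
Heat map of 14 genes (rows) for which 1 of the 10 tumors (columns, with the mouse in brackets) lay far from the others, colored by log2 of CPM plus 1 minus the median of the 10 tumors. Tumor 10 is low for Wif1, Notum, Prox1 and Lef1 and high for Chgb, tumor 6 is low for Sox17, Hoxb13 and Mgp and high for Cldn15, and tumor 9 is low for Atoh1 and Agr2.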

How the data were processed

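Single-cell libraries (Chromium 3' v3.1) of 10 tumors and 3 mucosa samples were analysed from the deposited matrices of UMI counts per gene and barcode, which the authors made with Cell Ranger against mm10 (6.0.0 in the submitters' processing notes, with another version in the study's methods). The deposited counts are not normalized. Members, gene lists and tests were chosen with earlier results of these data known. Groups and mice came from the sample labels. UMIs of the chosen cells were summed per library (6.21 to 15.4 M in tumors, 24.2 to 36.1 M in mucosa) and tested with edgeR 4.0.16 (quasi-likelihood, TMM, low counts filtered, Benjamini-Hochberg over all genes), without the 6 genes of the rule. The mouse pairs tumors with mucosa by design, and deviations of tumors and mucosa of the same mouse correlated at 0.209, 0.0696 and 0.255 (mice A, B and C), so the mouse as a block was an alternative. DESeq2 1.42.0, RLE scaling, no filter, other cycling minima, thinned cells, a stricter mitochondrial limit, doublets removed, mice or libraries left out and tumors summed per mouse were further alternatives, and leaving out the libraries labelled female was added after the data were seen. The interaction was not refitted with DESeq2, the stricter mitochondrial limit, the mouse as a block, mice left out or tumors summed per mouse. Its p-values thus have no alternative at the level of the mouse. The separate fit of non-cycling cells was run without any alternative. Shares and the phase ratio used exact permutation within mice. Genes named outside the lists were the 10 largest rises and 10 largest falls among genes that passed, did not overlap and reached 50 CPM, and the 5 largest interactions each way among genes of at least 50 CPM in cycling cells. From each list, the called genes of largest change, the most abundant ones and those of textbook role could be named, and some genes that these rules select are not reported here. Doublets were scored against simulated pairs at an expected 0.8% per 1000 barcodes and kept in the main results. Intervals and floors cover counting error only. On simulated counts, 4-fold changes were recovered in 50 of 50 higher and 45 of 45 lower genes of the tumor against mucosa comparison, and 2-fold changes in 16 of 50 and 23 of 45. For the interaction with cycling, 4-fold changes were recovered in 36 of 50 positive and 42 of 50 negative genes. Interactions of 2-fold were recovered in 3 of 50 and 7 of 50, so smaller ones were mostly missed in that setting. The simulation gave all genes the same dispersion and the populations of a library no shared effect. Its shares therefore do not measure the power in these data.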

Additional observations from a re-analysis of the deposited data

Results flagged for a closer look

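In 14 of the 117 genes tested by Dixon's criterion, 1 of the 10 tumors lay far from the other 9, where chance alone gives about 1 in 20, or 5.85. Tumor 10 stood apart with 10.6 CPM of Cdk6, 38.0 of Wif1, 14.5 of Notum, 6.22 of Lef1, 30.1 of Prox1, 75.1 of Mmp7 and 33.3 of Vim, all below the other tumors, and with 32 CPM of Chgb, above them. Tumor 6 stood apart with 0.861 CPM of Sox17, 24.5 of Hoxb13 and 32.7 of Mgp, below the others, and 48.1 of Cldn15, above them. Tumor 9 stood apart with 0.768 CPM of Atoh1 and 224 of Agr2, below the others.

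Mice differed in the direction of 3 genes, and this difference was not tested. The pooled difference of Car1 was -3.09, with tumors of mice A and B below and those of mouse C above their own mucosa. The pooled differences of Igkc and Jchain were 1.37 and 1.47, with tumors of mouse A above and those of mouse B below their own mucosa, and for Jchain those of mouse C above. With doublets removed the pooled differences of Igkc and Jchain were 4.53 and 4.40 (edgeR adjusted p = 0.00943 and 0.00555).

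The interaction of tissue and cycling passed edgeR's test for Pyy (4.40), Slc9a3 (4.22), S100a8 (3.97), Plat (3.11) and Car1 (2.86). In the other direction it passed for Igkc (-5.03), Jchain (-4.50), Igha (-4.27), Lcn2 (-3.17) and Gm42047 (-2.35). The value of S100a8 rests on very few counts in cycling mucosa. Plat differed by 9.01 in cycling cells, against 7.61 for S100a8, and both interactions are a description. That of Pyy was not called with doublets removed (2.86), those of Pyy, S100a8 and Car1 were not called without the libraries labelled female, and those of Igkc, Jchain and Igha were not called without mucosa 1 or 3, in cells thinned before the rule or without the libraries labelled female.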

How the results depend on the processing

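The difference in the share of epithelial cells with mitotic genes was 1.22 points with doublets removed and ranged from -5.33 to 0.174 points when single libraries were left out, positive without mucosa 2 only. It was -7.35 without thinning and -6.67 with 10000 UMIs per cell. The difference in the phase ratio was positive under every alternative run but ranged from 0.0357 (without tumor 9) to 0.202 (without tumor 10) over single libraries left out, and was 0.210 with at least 8 UMIs of Mki67 and Top2a. The count of 7024 genes ranged from 4704 (without mouse A) to 8442 (DESeq2, which tested 21811 genes and had a median difference of 0.27), and from 5716 to 7199 with single libraries left out. With the mouse as a replicate block 7339 genes passed, 6908 of them shared, and with tumors summed per mouse and blocked 6992. Among the genes named, that last fit lost the calls of Car1 (-2.17) and Chgb (-3.31) and gained Pyy (3.46), and the blocks changed no other call. The interaction count of 4560 ranged from 2940 to 4883 with single libraries left out, and was 2314 without the libraries labelled female, which leaves fewer samples. Direction turned with doublets removed for Chgb (1.08), Klf4 (0.13) and the interaction of Cdkn2a (1.27, and 1.52 with at least 8 UMIs of Mki67 and Top2a), without the libraries labelled female for Vil1 (-0.15), and without mouse A for Igkc (-0.53), Igha (-0.22), Jchain (-0.29) and the median of the B and plasma cell list (-0.53). The S phase median ranged from -0.46 to -0.044 over the alternatives and the absorptive median from -3.18 to -1.51, each without a change of sign. The enteroendocrine median turned with at least 8 UMIs (1.48), doublets removed (1.08) and thinned cells (0.66). The tuft median turned with DESeq2 (-0.63), no filter (-0.67), tumors summed (-0.013), without mouse A (-0.17) or B (-0.057) and, over single libraries left out (-0.045 to 1.43), without mucosa 3. Medians near 0 have no firm sign, and ranged over the alternatives from -0.15 to 0.026 for identity factors, -0.18 to 0.096 for one-carbon, -0.16 to 0.11 for DNA damage, -0.27 to 0.015 for epithelial, -1.62 to 2.43 for T cell and -1.87 to 1.96 for erythrocyte genes. Without the libraries labelled female, calls were also lost for Cdk1, Hells, Cdkn2b, Defa24, Jun, Fos, Ndrg1, Slc20a1, Ang4, Ptgs1, Stmn1 and Sprr2a3 and for the interactions of Pyy, S100a8, Car1, Igkc, Jchain and Igha. Without mouse A they were lost for Hells, Ckap2, Lgr5, Car1, Chgb, Stmn1 and Ptgs1, without mouse B for Cdk1, Hells, Hoxb13, Ang4, Stmn1 and Sprr2a3, without mouse C for Cdkn2b, Hoxb13, Ang4, Ptgs1, Chgb and Sprr2a3, and with doublets removed for the interactions of Pyy, Jchain and Igha. In cells thinned before the rule the interactions of Igkc, Jchain, Igha and Wif1 and the calls of Cdkn2b and Sprr2a3 were lost. With at least 2 UMIs of Mki67 and Top2a the calls of Cdkn2b, Zg16 and Sprr2a3 and the interaction of Jchain were lost. With at least 8 the call of Ang4 was lost, and with the stricter mitochondrial limit that of Stmn1. The lowest difference of Sprr2a3 over the alternatives was 0.25. The cause was not tested for any of these. Dissociation and tissue cannot be told apart, and with 3 mucosa libraries many 2-fold changes were missed in simulated counts.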

Other observations

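Of 26 genes of ribosome production tested in cycling cells, 12 rose, 1 fell and 13 did not pass, against 28.3% higher and 25.2% lower over all genes. Their median was 0.25 where that of all genes was 0.03, falling to 0.044 without the libraries labelled female. Among them 5 had a negative interaction with cycling and none a positive one, against 10.5% and 20.5% of all genes. Mybbp1a, a nucleolar protein, stood at 67.0, 86.5 and 65.9 CPM in mucosa 1, 2 and 3 and 141 to 188 CPM (median 154) in tumors. All tumors lay above all mucosa and Mybbp1a rose by 1.00 ± 0.11 (edgeR adjusted p = 5.09e-06). Ncl, the nucleolin gene, rose by 0.71 ± 0.14, and its difference was 0.33 and not called without the libraries labelled female.

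Of 46 genes of one-carbon metabolism, nucleotide synthesis and DNA methylation tested, 12 rose and 12 fell, with a median of 0.00, near the shares of all genes (28.3% higher and 25.2% lower). Cbs, the first enzyme of transsulfuration, stood at 65.4, 86.7 and 79.4 CPM in mucosa and 11.2 to 20.0 CPM (median 14.9) in tumors. It fell by 2.40 ± 0.16 (edgeR adjusted p = 1.75e-07) with all tumors below all mucosa. Paics, an enzyme of purine synthesis, rose by 0.71 ± 0.11 and the DNA demethylase gene Tet2 by 0.93 ± 0.17, each with all tumors above all mucosa. Of 26 genes of DNA damage signaling tested, 3 rose and 4 fell, with a median of -0.03, so that fewer passed than the 28.3% higher and 25.2% lower of all genes.

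Of the 12 epithelial genes outside the rule, 3 rose and 4 fell, near the shares of all genes (28.3% higher and 25.2% lower). The claudin gene Cldn4 stood at 2.35, 1.44 and 1.41 CPM in mucosa and 66.9 to 191 CPM (median 121) in tumors and rose by 6.03 ± 0.39. Tspan8, a tetraspanin, stood at 558, 609 and 653 CPM in mucosa and 98.4 to 313 CPM (median 183) in tumors and fell by 1.73 ± 0.31.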
